A study of Rattus norvegicus with 6 samples.

Results

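Fibromodulin (Fmod), lumican (Lum), decorin (Dcn), biglycan (Bgn) and tenomodulin (Tnmd), 5 connective tissue genes, were followed in the tibialis anterior muscle of rats after a nerve injury and its repair. They were chosen by name, as every probe set that carries 1 of these symbols alone. Each gene had 1 such probe set, so the 5 genes were read by 5 of the 15923 probe sets of the array, which named 10412 genes in all. All 5 passed the filter on dim probe sets.

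The animals were 3 male Wistar rats, 8 weeks old. In each, the peroneal nerve was cut and sewn to the biceps femoris muscle. The 2 stumps of the nerve were joined 4 weeks later, and the animals were then kept for 8 weeks, reading the survival time as starting at the repair. Total RNA from the ipsilateral muscle (the operated side, 3 libraries) and from the contralateral muscle on the other side (titled "Cont", 3 libraries) was hybridised to 1 array per muscle. The animals are numbered 4, 5 and 6. No muscle from an animal without surgery was analysed here, so the contralateral muscle is the only comparison.

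Fibromodulin, lumican, decorin and biglycan are small leucine-rich proteoglycans: secreted proteins with a curved stack of leucine-rich repeats that bind collagen fibrils and set how thick and how regular those fibrils grow. Decorin and biglycan carry chondroitin or dermatan sulphate chains and bind growth factors of the TGF-beta family. Fibromodulin and lumican carry keratan sulphate and compete for a common site on collagen I. Both are abundant in tendon, and lumican also in cornea. Tenomodulin is a membrane glycoprotein of the cells of tendon and ligament and is used as a marker of mature tendon cells. In muscle these transcripts come mainly from fibroblasts of the connective tissue sheaths and from tendon cells. In whole muscle, more cells of such a type and more RNA per cell cannot be told apart.

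Some of these genes lie beside their relatives in the rat reference (GRCr8). Lum lies between Dcn and Kera, with Epyc the next gene after Kera. Fmod lies beside Prelp, followed by Optc. Promoter windows were at hand for Fmod, Lum and Tnmd, and all of these are shown, whatever the direction of their differences. No window was at hand for Dcn and Bgn. Each window is 300 bases of the plus strand from RefSeq, from 250 bases before the start site to 50 after it. Capitals mark the letters CANNTG, the E-box bound by helix-loop-helix factors such as the tendon factor scleraxis, and CAGAC or its reverse complement GTCTG, a Smad-type element of TGF-beta signalling.
Fmod, GRCr8 chr13:48045317-48045616, plus strand: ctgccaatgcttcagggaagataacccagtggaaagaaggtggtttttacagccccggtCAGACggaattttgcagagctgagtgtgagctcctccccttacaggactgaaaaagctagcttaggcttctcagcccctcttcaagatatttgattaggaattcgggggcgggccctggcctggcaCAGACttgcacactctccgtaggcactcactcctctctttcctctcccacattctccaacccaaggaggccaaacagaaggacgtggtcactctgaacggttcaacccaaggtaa
Lum, GRCr8 chr7:34245456-34245755, plus strand: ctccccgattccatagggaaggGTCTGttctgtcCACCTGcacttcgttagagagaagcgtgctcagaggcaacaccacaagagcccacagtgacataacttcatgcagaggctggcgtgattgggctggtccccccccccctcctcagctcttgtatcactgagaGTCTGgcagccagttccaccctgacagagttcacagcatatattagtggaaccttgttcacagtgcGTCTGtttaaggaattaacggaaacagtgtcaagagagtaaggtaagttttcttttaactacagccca
Tnmd, GRCr8 chrX:101350182-101350481, plus strand: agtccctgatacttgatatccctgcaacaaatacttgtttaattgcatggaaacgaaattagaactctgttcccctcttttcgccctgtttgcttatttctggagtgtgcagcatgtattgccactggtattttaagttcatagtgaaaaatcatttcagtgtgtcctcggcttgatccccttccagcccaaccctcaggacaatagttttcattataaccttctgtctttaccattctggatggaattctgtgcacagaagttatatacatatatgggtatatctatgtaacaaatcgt

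No marked motif was found in all 3 windows. On both strands, the Fmod window held 2 CAGAC elements, the Lum window 3, and the Tnmd window 0. CANNTG was found once, in Lum, and overlapped no CAGAC element. Of 33469 rat windows of this length, 50.1% held CAGAC and 72.1% held CANNTG. At least 2 CAGAC elements were found in 16.06% of the windows, and at least 3 in 4.165%. The start site used for Lum lies 383 bases inside the gene's annotated extent. These are matches of letters only.

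Median intensities of the 6 arrays ran from 60.2 to 66.6, and the number of arrays limits the precision. The muscle fibre transcripts Acta1 (skeletal actin) and Ckm (muscle creatine kinase) had intensities of 5212 to 6294 and 5877 to 6663 in the ipsilateral libraries, against 5859 to 7389 and 6713 to 8247 in the contralateral ones, so the muscle label fits its defining transcripts. Some libraries stood apart from the rest. The sperm transcript Prm1 was at 617 in ipsilateral 4, against 39.5 to 248 in the other 5 libraries. The cre hybridisation control was lower in both libraries of animal 4, at 1476 in the ipsilateral and 1117 in the contralateral one, against 2481 to 3605 in the rest. Dividing the 3' beta-actin probe set by the middle one gave 2.87 in ipsilateral 6 and 2.77 in contralateral 4, against 1.36 to 1.68 in the others.

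Across the 5 genes, the ipsilateral muscle had the higher intensity of Fmod, Lum, Bgn and Tnmd and the lower intensity of Dcn in all 3 animals. The log2 differences, ipsilateral minus contralateral, were 0.83 for Fmod, 0.76 for Bgn, 0.68 for Tnmd, 0.39 for Lum and -0.21 for Dcn. Being higher in all 3 animals held for 4 of the 5 genes and for 12.3% of the 9519 tested probe sets. Being lower in all 3 held for 1 gene and for 15.1% of the probe sets. None of the 5 passed the adjusted threshold of 0.05 in limma's paired fit, as 0 of the 9519 probe sets did (0%). At an unadjusted p under 0.05, 4 of the 5 genes were higher, against 3.57% of the probe sets, and 0 were lower, against 2.78%. Differences are on the scale log2(intensity + 15.8), which understates those of dim genes. The standard error (SE) is limma's over 3 pairs and borrows from the variance of other probe sets. An exact sign-flip test of 3 pairs cannot go below a two-sided p of 0.25, which each of the 5 genes reached.

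**Figure D1:**
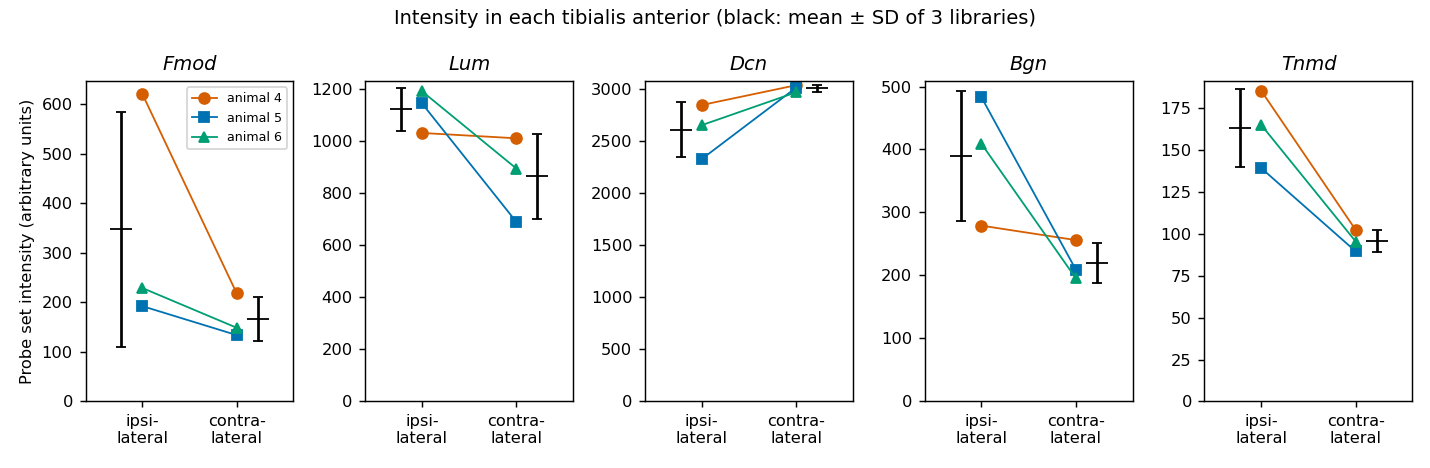
Probe set intensity (vertical axis, arbitrary units, from 0) of each gene in the ipsilateral and contralateral tibialis anterior, with a line joining both muscles of an animal and black marks for the mean ± SD of 3 libraries. The Fmod value of 621 in ipsilateral 4 stands above all other Fmod values, while the Dcn values of the contralateral side lie close together, between 2968 and 3036.

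Fibromodulin had intensities of 621, 192 and 229 in the ipsilateral muscles of animals 4, 5 and 6, against 218, 134 and 149 in their contralateral muscles. Ipsilateral 4 was far above the other libraries, and the groups overlapped, since contralateral 4 exceeded ipsilateral 5. The group means were 347.5 ± 237.7 ipsilaterally and 167 ± 44.9 contralaterally (SD, n = 3 each). The log2 difference was 0.83 (SE 0.20, 95% interval 0.37 to 1.29, limma adjusted p = 0.442), with 1.45, 0.48 and 0.57 in animals 4, 5 and 6. In animal 4, only 0.0735% of the tested probe sets had a difference as high, against 9.38% in animal 5 and 4.14% in animal 6. Without animal 4 the difference was 0.53. Without ipsilateral 4 alone, in a fit that drops the pairing, it was 0.33 (limma adjusted p = 0.571).

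The library with the most fibromodulin also had the highest value, by brightest probe sets, of 3 other matrix transcripts of tendon, cartilage or bone. Chondroadherin (Chad), a leucine-rich protein of cartilage and tendon that was too dim to be tested, was at 99.7 in ipsilateral 4, against 5.4 to 21.6 in the other 5 libraries. Cartilage oligomeric matrix protein (Comp) was at 96.2 in ipsilateral 4, against 28.8 to 48.4 in the others. Col1a1 was at 1820 there by its brightest probe set, against 979 to 1719 in the others. Its dimmer probe set was not highest there, at 810 in ipsilateral 4 and 824 in ipsilateral 5. Chad and Comp are in the fixed tendon list and Col1a1 in the fixed collagen list, but the choice of these 3 here followed their values. By brightest probe sets, 3 of the 11 tendon list genes on the array were highest in ipsilateral 4, and as many (3) in contralateral 5. Of the rest, 4 were highest in ipsilateral 6 and 1 in contralateral 4. Thbs4, Htra3, Tnc, Fibin and Col14a1 were among those not highest in ipsilateral 4. The part of these transcripts, and of the sperm transcripts of that library, in the Fmod difference was not tested.

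Lumican, the other keratan sulphate member, was at 1030, 1144 and 1190 in ipsilateral muscles 4, 5 and 6, against 1010, 688 and 893 in the contralateral ones. Every ipsilateral value lay above every contralateral value, but only just in animal 4. The means were 1121 ± 82.3 ipsilaterally and 864 ± 163 contralaterally (SD, n = 3 each). The log2 difference was 0.39 (SE 0.16, 95% interval 0.02 to 0.76, limma adjusted p = 0.77), with 0.029, 0.72 and 0.41 in animals 4, 5 and 6. It was 0.22 without animal 5.

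Decorin was at 2845, 2327 and 2652 in ipsilateral muscles 4, 5 and 6, against 3036, 3013 and 2968 in the contralateral ones. It was the only gene of the 5 with lower ipsilateral values, and its groups did not overlap. The contralateral values differed little between animals, with a coefficient of variation of 1.14%, against 10.0% ipsilaterally. The log2 difference was -0.21 (SE 0.12, 95% interval -0.49 to 0.07, limma adjusted p = 0.809), with -0.093, -0.37 and -0.16 in animals 4, 5 and 6. The interval holds 0, and 15.3% of the tested probe sets had a difference as low. Without animal 5 it was -0.13.

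Biglycan, the closest relative of decorin, was at 279, 483 and 409 in ipsilateral muscles 4, 5 and 6, against 256, 209 and 195 in the contralateral ones. The groups did not overlap. Animals 5 and 6 more than doubled on the ipsilateral side, with intensity ratios of 2.31 and 2.10, while animal 4 had a ratio of 1.09. The means were 390.3 ± 103 ipsilaterally and 220.0 ± 32.0 contralaterally (SD, n = 3 each). The log2 difference was 0.76 (SE 0.21, 95% interval 0.29 to 1.23, limma adjusted p = 0.545), with 0.12, 1.15 and 1.01 in animals 4, 5 and 6. Without animal 4 it was 1.08 and passed the threshold (limma adjusted p = 0.00282), in a fit that called 1.79% of the probe sets higher and 1.22% lower and that had fewer residual degrees of freedom. Without ipsilateral 4 alone and without the pairing it was 0.97 (limma adjusted p = 0.0348, 0.609% of probe sets called higher and 0.315% lower). It missed the threshold without animal 5 and without animal 6.

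Tenomodulin was at 186, 139 and 165 in ipsilateral muscles 4, 5 and 6, against 102, 89.6 and 95.5 in the contralateral ones. The groups did not overlap, and the 3 animals kept the same order on both sides. The means were 163 ± 23.2 ipsilaterally and 95.8 ± 6.41 contralaterally (SD, n = 3 each). The log2 difference was 0.68 (SE 0.15, 95% interval 0.34 to 1.01, limma adjusted p = 0.347), with 0.77, 0.56 and 0.70 in animals 4, 5 and 6. Its SD over animals was 0.11, the smallest of the 5 genes, against 0.14 for Dcn, 0.35 for Lum, 0.53 for Fmod and 0.56 for Bgn. Tnmd ranked 33 by p among all tested probe sets, and Fmod ranked 51, Bgn 85, Lum 521 and Dcn 1485. It lay between 0.57 and 0.76 under every alternative that was run.

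Counting groups that did not overlap, 3 of the 5 genes had every ipsilateral value above every contralateral value, which 4.74% of the tested probe sets did. The reverse was found for 1 gene, against 5.78% of the probe sets. Fmod was the 1 gene whose groups overlapped.

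**Figure D2:**
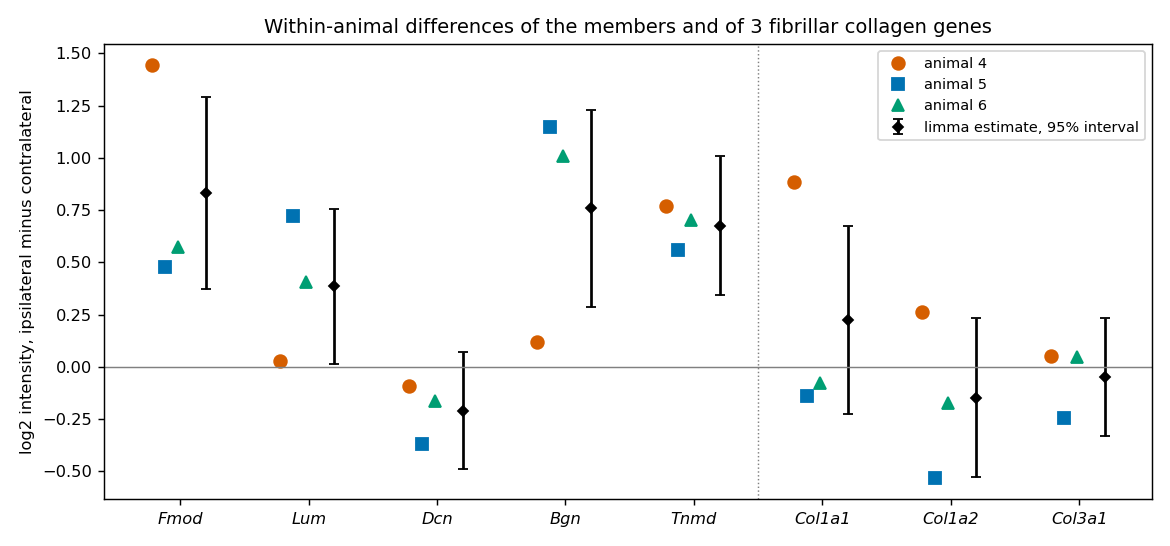
Log2 intensity difference, ipsilateral minus contralateral, of the 5 genes and of Col1a1, Col1a2 and Col3a1. Coloured symbols are the 3 animals, and black diamonds with bars are limma's estimate and 95% interval. Animal 4 has the highest Fmod value (1.45) and the lowest Bgn (0.12) and Lum (0.029) values among the animals, whereas the Tnmd values lie between 0.56 and 0.77.

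The animals did not share 1 pattern across the family. In animal 4 the differences of Fmod (1.45) and Tnmd (0.77) were the largest of the 5, with Bgn and Lum near 0. In animals 5 and 6, Bgn differed more than Fmod. Of 10 pairs of genes compared within animals, 5 had the same sign in all 3 animals. Tnmd exceeded Dcn by nearly the same amount each time, since the difference of Dcn minus that of Tnmd was -0.86, -0.93 and -0.86 in animals 4, 5 and 6. The neighbouring genes Lum and Dcn went apart, with Lum minus Dcn at 0.12, 1.09 and 0.57. Bgn also exceeded Lum in each animal, with Lum minus Bgn at -0.089, -0.43 and -0.60. The close relatives Dcn and Bgn differed by -0.21, -1.52 and -1.17 (Dcn minus Bgn), and Fmod minus Dcn was 1.54, 0.85 and 0.74. With 3 animals each of these had an exact sign-flip p of 0.25, the smallest possible, and 0.5 after Benjamini-Hochberg adjustment over the 10 pairs.

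Collagens I and III, the fibrils these proteoglycans coat, did not differ in 1 direction. By their brightest probe sets, Col1a1 had a mean intensity of 1569 ± 247 ipsilaterally and 1366 ± 371 contralaterally (SD, n = 3 each). Col1a2 had 1287 ± 405 ipsilaterally and 1391 ± 165 contralaterally, and Col3a1 had 3029 ± 258 ipsilaterally and 3145 ± 452 contralaterally. Their log2 differences were 0.22 (SE 0.20), -0.15 (SE 0.17) and -0.05 (SE 0.13). Dimmer probe sets gave 0.23 (SE 0.17) for Col1a1 and 0.14 (SE 0.14) for Col1a2. The median of the 3 brightest was 0.26, -0.24 and -0.078 in animals 4, 5 and 6. Set against this median in each animal, Fmod was higher by 1.18, 0.72 and 0.65 and Tnmd by 0.51, 0.80 and 0.78 in animals 4, 5 and 6. Bgn and Lum exceeded it in animals 5 and 6 but not in animal 4, where they stood at -0.14 and -0.23 relative to it. Dcn stood at -0.35, -0.13 and -0.084. Over the 11 tested collagen genes of the fixed list the median log2 difference was -0.03, with 0 higher and 1 lower in all 3 animals and 0 called.

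The other small leucine-rich proteoglycans were counted next. Of 13 listed genes, 5 were on the array and 4 were tested, with a median log2 difference of 0.25, 2 higher and 0 lower in all 3 animals, and 0 called. Over all tested probe sets the median was -0.016, with 12.3% higher and 15.1% lower in all 3 animals. The counts of every gene list given here are to be read beside these shares. Osteoglycin (Ogn) differed by 0.39 (SE 0.17) by its brightest probe set and by 0.19, 0.53 and 0.22 by its dimmer ones. Asporin (Aspn), which like decorin binds collagen and TGF-beta, was at 94.1, 87.6 and 77.0 ipsilaterally, against 78.3, 55.6 and 57.0 contralaterally in animals 4, 5 and 6, a difference of 0.37 (SE 0.16). Osteomodulin (Omd) and Prelp, the neighbour of Fmod, differed by 0.14 (SE 0.17) and 0.09 (SE 0.24), each with a negative value in animal 5. Prelp differed by 0.80 in animal 4 and by -0.64 in animal 5. Its highest value was 242 in contralateral 5, against 196 in ipsilateral 4.

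The tendon list held 18 genes, of which 11 were on the array and 6 were tested. Its median log2 difference was 0.19, with 1 gene higher and 1 lower in all 3 animals and 0 called, and it was 0.04 without animal 4. Thrombospondin 4 (Thbs4), a matrix protein of tendon and muscle, was at 406, 547 and 596 in ipsilateral muscles 4, 5 and 6, against 264, 214 and 160 in the contralateral ones. Its difference of 1.23 (SE 0.22) exceeded those of all 5 genes above. Egr1, a transcription factor that responds to loading and acts in tendon cells, differed by -0.51 (SE 0.15) and did not overlap. Comp differed by 0.34 (SE 0.22), with -0.25 in animal 5, and Col12a1 by 0.21 (SE 0.17). Tenascin C (Tnc) was too dim to be tested, at 39.7 ± 2.10 ipsilaterally and 23.2 ± 12.9 contralaterally. The tendon factors Scx and Mkx were not analysed here.

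Among the enzymes that mature collagen, 12 of 17 genes were tested, with a median log2 difference of 0.10, 3 higher and 3 lower in all 3 animals. Lysyl oxidase (Lox), which cross-links collagen and whose action fibromodulin is known to guide, differed by 0.74 (SE 0.22) and by 0.59 (SE 0.20) on a dimmer probe set. By the brighter probe set, Lox was at 174, 261 and 145 in ipsilateral muscles 4, 5 and 6, against 130, 86.6 and 104 in the contralateral ones, without overlap. By the dimmer one the groups overlapped, since contralateral 4 (46.4) exceeded ipsilateral 6 (38.9). Bmp1, a protease that trims procollagen and the precursor of biglycan, differed by 0.40 (SE 0.15). Sparc, a collagen-binding matricellular protein, differed by 0.28 (SE 0.14), and the prolyl hydroxylase subunit P4ha1 by -0.31 (SE 0.16). None of these passed the adjusted threshold. The list median was 0.06 without animal 5 and 0.20 without animal 6.

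The enzymes that build glycosaminoglycan chains had a median log2 difference of 0.13 over 13 of 32 listed genes, with 3 higher and 0 lower in all 3 animals. The sulphate donor enzyme Papss1 differed by 0.32 (SE 0.16), and the chondroitin chain enzymes Chpf and Chsy1 by 0.25 (SE 0.15) and 0.23 (SE 0.15), all higher in each animal. Xylt2, which starts the chains, differed by -0.14 (SE 0.18) by its brightest probe set, with 0.17 in animal 5. The list median was 0.0087 without animal 5 and 0.057 without animal 4. Of the ligands and receptors known to bind these proteoglycans, 13 of 22 were tested, with a median of 0.08 and with 2 higher and 0 lower in all 3 animals. Tgfb2, a TGF-beta ligand, differed by 0.36 (SE 0.17) and by 0.52 (SE 0.16) on its other probe set. The growth factor receptor Kdr differed by 0.38 (SE 0.15). C1qc and C1qa, chains of the complement protein C1q that decorin and biglycan can bind, differed by -0.31 (SE 0.20) and -0.19 (SE 0.18). The remaining chain, C1qb, differed by -0.38 (SE 0.35). In animal 4 C1qc, C1qa and C1qb were higher ipsilaterally, by 0.19, 0.27 and 0.97. Of 13 proteases that cleave these proteins, 4 were tested, with a median of 0.14. Mmp2, a gelatinase, differed by 0.12 (SE 0.14). Other proteoglycans had a median of 0.08 over 11 of 19 genes, and serglycin (Srgn), the proteoglycan of blood cell granules, differed by -0.38 (SE 0.15). With each animal left out in turn, the medians ran from 0.02 to 0.11 for the ligands and receptors, 0.03 to 0.31 for the proteases and -0.03 to 0.09 for the other proteoglycans.

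**Figure D3:**
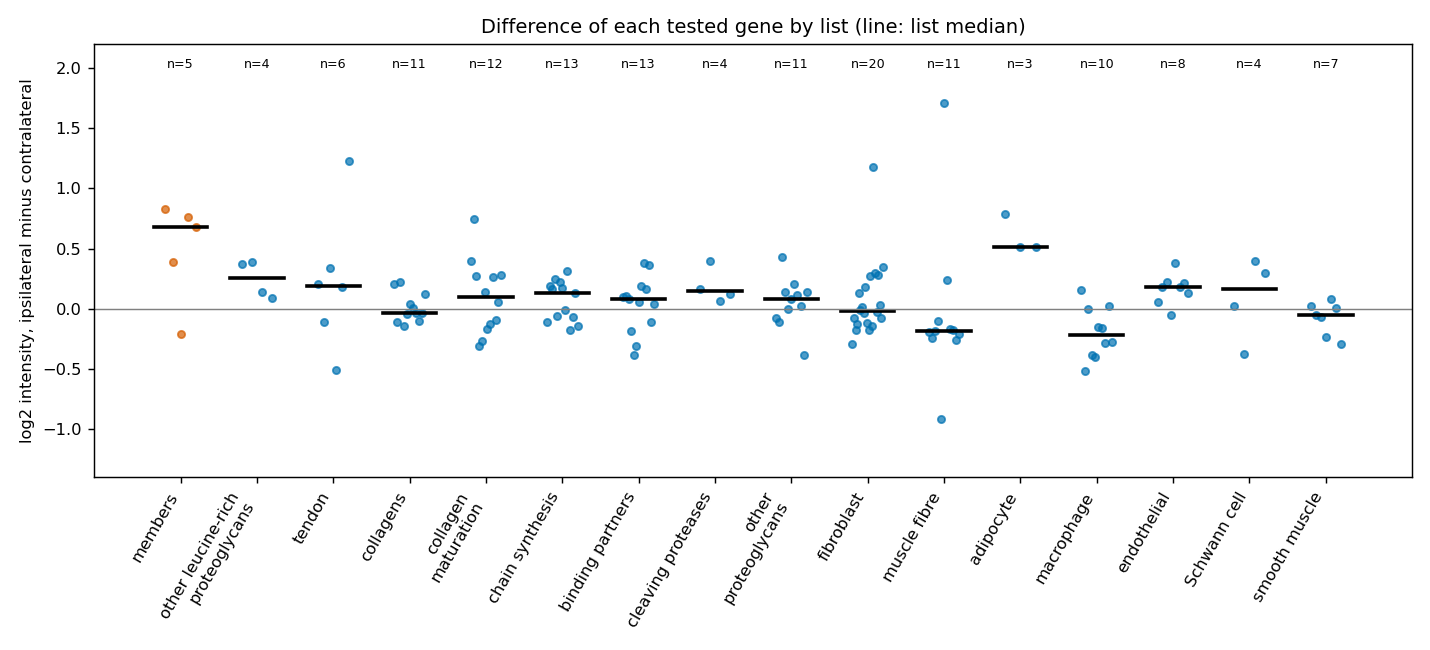
Log2 intensity difference, ipsilateral minus contralateral, of each tested gene (points, brightest probe set) by list, with a black line at the list median and n the number of tested genes. The 5 genes described here lie between -0.21 and 0.83, while the 20 fibroblast genes have a median of -0.02 and the 11 collagens a median of -0.03.

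Markers of the cells that may hold these transcripts were set beside the 5 genes. Fibroblast markers had a median log2 difference of -0.02 over 20 tested genes of 23, with 3 higher and 3 lower in all 3 animals, and the summed intensity of all probe sets of the list was 17960 to 18113 ipsilaterally and 16648 to 18226 contralaterally. Pdgfra, a receptor of fibroblasts, differed by 0.27 (SE 0.15), without overlap. S100a4 differed by 1.18 (SE 0.36), with -0.042, 2.49 and 1.09 in animals 4, 5 and 6. Summed tendon list intensities, over all probe sets of the list, were 1868 to 1991 ipsilaterally and 1342 to 1788 contralaterally. Without Thbs4 they overlapped, at 1320 to 1585 ipsilaterally and 1182 to 1524 contralaterally. Adipocyte markers had a median of 0.52 over 3 tested genes of 10, with Cfd (adipsin) at 735 ± 93.0 ipsilaterally and 418 ± 47.3 contralaterally. Without the filter on dim probe sets the median was 0.15. Among the members too dim to be tested, Pparg, a regulator of fat cell formation, differed by -0.48 and was lower in all 3 animals, Lipe, a lipase, differed by -0.058 and Plin1, a lipid droplet protein, by 0.15. Over all probe sets of the list, dim ones included, the summed intensity was 1598 to 2547 ipsilaterally and 1164 to 1798 contralaterally, and the adipocyte hormone gene Lep was near 0, at 2.63 ± 0.777 ipsilaterally and 3.13 ± 0.709 contralaterally.

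Of the other cell types, macrophage markers had a median log2 difference of -0.22 over 10 tested genes, with 0.011, -0.23 and -0.38 in animals 4, 5 and 6. In all 3 animals 0 were higher and 5 lower, and being lower in all 3 held for 15.1% of the tested probe sets. Of these 5, Cd74 was nearly level in animal 4, at 1594.5 ipsilaterally and 1594.9 contralaterally. All probe sets of the list summed to 3445 to 4750 ipsilaterally and 4772 to 5168 contralaterally, so the groups were only just apart. The brightest probe set in these sums was that of Cd74, at 1276 to 1594.5 ipsilaterally and 1594.9 to 2075 contralaterally. A sum without Cd74 was not computed. Muscle fibre markers had a median of -0.19 over 11 genes (-0.031 after quantile normalization), and all their probe sets summed to 43410 to 49888 ipsilaterally and 47630 to 56485 contralaterally. In that list the slow myosin Myh7 differed by 1.71 (SE 0.36) and the fast myosin Myh4 by -0.92 (SE 0.19), both without overlap. Endothelial markers had a median of 0.18 over 8 genes, Schwann cell markers 0.16 over 4 and smooth muscle markers -0.06 over 7. The Schwann cell median was 0.00084 without animal 4 and 0.016 with dim probe sets kept in. Of the tested Schwann cell markers, Pmp22 differed by 0.40 (SE 0.15), S100b by 0.30 (SE 0.15) and Mag by 0.02 (SE 0.17). A dimmer Pmp22 probe set gave 0.24 (SE 0.22). Mbp, a myelin protein, differed by -0.38 (SE 0.16). The macrophage median was -0.11 without animal 6. Of 17 cartilage and bone genes only Col2a1 and Spp1 were bright enough to be tested, at 0.34 (SE 0.18) and -0.84 (SE 0.18), and the bone genes Bglap and Ibsp lay near 0, at 1.1 ± 0.1 and 3.23 ± 1.74 ipsilaterally and 1.27 ± 0.208 and 2.67 ± 0.252 contralaterally. The sperm transcripts Prm1, Tnp1 and Odf1 were higher in all 3 animals, with a median of 1.31. The part of these cell types in the differences of the 5 genes was not tested.

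The probe sets with the most similar within-animal pattern were sought for each gene, as Pearson correlations over the 6 libraries after each animal's mean was subtracted. This leaves 3 free values per probe set, so close matches arise easily among 9519 tested probe sets. A correlation of at least 0.98 was reached by 62 probe sets (0.65%) for Tnmd and 67 (0.70%) for Fmod. It was reached by 196 (2.06%) for Bgn, 204 (2.14%) for Dcn and 208 (2.19%) for Lum. The closest to Tnmd was Clec11a, a secreted growth factor of the skeleton, with differences of 0.81, 0.55 and 0.75 in animals 4, 5 and 6. Rxrb and Apol3l1 followed. The closest to Lum were Zfp36l1, Ccn2 (connective tissue growth factor) and Magoh, and Ccn2 had differences of 0.11, 2.66 and 1.48. The closest to Bgn were Cryab, a small heat shock protein, Xirp1, an actin-binding protein of muscle, and Atosb. For Fmod they were Sec22a, Tfg and Cs, and for Dcn Fbxl20, Atp5mf and Rtfdc1. The lowest of these 15 correlations was 0.998.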

How the data were processed

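RNA of 6 muscles was measured on 1 rat expression array each. The table deposited by the authors holds linear intensities. Without the lowest and highest 2% of its values, every array averaged about 150.0, so the authors had scaled them. The steps before deposit are otherwise unstated in the labels. A platform annotation, which can be old, named 12789 probe sets with 1 symbol, 312 with several and left 2822 unlisted, and 12754 of the named ones were found by gene ID in the RefSeq gene table of GRCr8.

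Groups and animals came from the titles. A pseudocount of 15.8 (the 20th percentile of all intensities) was added before log2 was taken, with no further normalization. The 57 control probe sets were left out. A mean above the 40th percentile (intensity 42.4) was needed for testing, which left 9519 probe sets. Testing used limma 3.58.1 in R 4.3.3 (lmFit and a trended eBayes) with a block per animal, since the labels compare both muscles of each animal. Benjamini-Hochberg adjustment covered every tested probe set. There were 2 residual degrees of freedom and 7.47 from the prior. Over probe sets, the deviations of an animal's muscles correlated at -0.041, 0.072 and 0.13 for animals 4, 5 and 6. P-values and intervals rest on the spread between these 3 animals, drawn by the prior towards that of other probe sets of like intensity. With 7.47 prior against 2 residual degrees of freedom, they do not measure the spread of a gene's own 3 differences alone.

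For differences and medians of listed genes the brightest tested probe set was used, and summed intensities took every probe set of a list. The 17 gene lists and their members were chosen with earlier results of these data known, so no list was tested. Named were the 5 genes, up to 4 genes of smallest p per list, 3 collagens, the nearest patterns, and a few genes given beside a result for their role or level. The procedure was run on simulated data with known changes, as a check of the estimated differences. Its rate of recovery is not given here. It therefore does not show which differences could be called in these data. Alternatives dropped the pairing, each animal or 1 of 3 single libraries, or changed the pseudocount, normalization, filter, prior or choice of probe set. Software for the figures was Python 3.11.15 with matplotlib 3.10.9.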

Additional observations from a re-analysis of the deposited data

Results flagged for a closer look

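Col10a1, a collagen of hypertrophic cartilage in the fixed cartilage and bone list, was too dim to be tested, yet each ipsilateral library exceeded each contralateral library and the filter's intensity of 42.4. Its intensities were 52.1 ± 5.51 ipsilaterally and 26.4 ± 4.99 contralaterally (SD, n = 3 each), a ratio of 1.97. It was the 1 probe set of 81 dim ones in the lists for which both conditions held, and it was picked by them. Its lack of overlap and its ratio are therefore a description only. Lack of overlap alone was not particular to it among the dim ones. Tnc and Cspg4 also had every ipsilateral value above every contralateral one, and Ngfr had the reverse.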

How the results depend on the processing

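Of 70 recomputed differences of the 5 genes, all kept their sign, and 68 also kept their side of the threshold. The 2 exceptions were Bgn without animal 4 and Bgn without ipsilateral 4 and the pairing (0.97). With each animal left out in turn, the log2 differences ran from 0.53 to 1.01 for Fmod, 0.22 to 0.56 for Lum, -0.27 to -0.13 for Dcn, 0.56 to 1.08 for Bgn and 0.63 to 0.74 for Tnmd. The count of probe sets called was 0 to 286, the highest without animal 4, and 88 without ipsilateral 4 and the pairing. The count at an unadjusted p under 0.05 was 605, and 232 to 1514 with an animal left out; the cause was not tested. Without the pairing by animal (no replicate block) 0 probe sets were called and the SE of Fmod was 0.35 in place of 0.20. That block changed no call of the 5 genes. Of 254 recomputed list medians, 21 moved by more than the spread between animals. The Fmod difference relative to the collagen median was 0.32 without ipsilateral 4 and the pairing, against 0.85.

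With 3 animals, an exact test cannot pass, and limma's intervals of the 5 genes span 0.56 to 0.94 log2 units. The deposited table gives no detection calls, so background could not be separated from signal for dim probe sets such as Chad. With 1 probe set per gene, no difference of the 5 genes could be checked on another probe set.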
